A study of Mus musculus with 6 samples.

Results

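The keratins examined here were the 8 genes Krt7, Krt8, Krt18, Krt19, Krt20, Krt23, Krt36 and Krt80, taken by symbol from the 52550 genes listed for each sample. They were chosen as keratins known from simple, single-layered epithelium, with Krt20 set against the pan-epithelial keratins Krt8, Krt18 and Krt19. RNA-seq of isolated colon epithelium had been carried out in 6 samples, 3 from Zfp90fl/fl mice and 3 from Zfp90ΔIEC mice. Expression was given as FPKM, the number of sequenced fragments scaled to the length of the transcript and to the mapped fragments of the library, so that levels can be set side by side between genes.

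Both groups were male C57BL/6 mice, labelled as aged 6 to 8 weeks, that had received the colitis-associated cancer model. The methods of the study give an age of 8 weeks at the injection that began it. With killing on day 80 the labelled age cannot be that at sampling. This consisted of 1 injection of azoxymethane (AOM, a carcinogen) at 10 mg/kg, followed after 5 days by dextran sodium sulfate (DSS, which injures the colon lining) in the drinking water. According to the labels DSS was given at 2%, for 7 days with 14 days of regular water after it, in 3 cycles, and the mice were killed on day 80. The methods of the study state another DSS concentration. In Zfp90ΔIEC mice exon 4 and the 3′ UTR of Zfp90, a zinc finger gene, were removed by Villin-cre, which is active in intestinal epithelium. Zfp90fl/fl littermates carried the floxed alleles and served as controls. No untreated samples were part of the comparison. After weaning the mice of each genotype were kept in cages of their own, and a cage effect and a genotype effect cannot be told apart. For 2 of the 3 Zfp90ΔIEC samples the genotype field names another zinc finger gene number, and they were assigned by their titles. The labels do not state whether each sample was 1 mouse, and the p-values measure the spread between these samples only.

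Keratins are the intermediate filament proteins of epithelial cells. A type I keratin pairs with a type II keratin, the pairs assemble into filaments, and the filaments are tied to desmosomes and give the cell its resistance to mechanical stress. In the colon Krt8, Krt18 and Krt19 are known from the whole crypt, whereas Krt20 is known as a keratin of differentiated cells near the luminal surface. Krt7 is better known from ductal epithelium, Krt36 from hair and nail, Krt23 as an inducible type I keratin, and Krt80 as a type II keratin of differentiating epithelia.

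Zfp90 itself was listed at 0.629, 0.490 and 0.569 FPKM in Zfp90fl/fl and at 0.0846, 0.195 and 0.166 FPKM in Zfp90ΔIEC, without overlap. Its mean in Zfp90ΔIEC was 0.264 times that in Zfp90fl/fl, with 16 to 38 estimated fragments per library against 93 to 111. It lay below the filter on low values (at least 1 FPKM in at least 3 samples), and without the filter it did not pass the threshold of an adjusted p of 0.05 (log2 fold change -0.44 on the log2(FPKM + 1) scale, limma with Benjamini-Hochberg adjustment, adjusted p = 0.123). The epithelial genes Epcam, Cldn7, Vil1 and Spint2 summed to between 1073 and 1176 FPKM in Zfp90fl/fl and between 1080 and 1154 FPKM in Zfp90ΔIEC. Of the 18 markers of squamous epithelium 6 were at 0 in every sample, Krt5, Krt1 and Trp63 among them. The 18 squamous markers together reached between 2.05 and 3.14 FPKM. Krt14 was the highest of the 18, at 0.750, 1.44 and 0.640 FPKM in Zfp90fl/fl and at 0.873, 0.651 and 1.18 FPKM in Zfp90ΔIEC, with overlap. The 5 mesothelial markers summed to between 0.593 and 1.26 FPKM, and the 11 markers of stroma and vessels to between 2.07 and 2.77 FPKM. The 13 leukocyte markers summed to between 8.74 and 10.2 FPKM in Zfp90fl/fl and between 2.98 and 3.97 FPKM in Zfp90ΔIEC. Of the 13, 10 were lower without overlap, beside 12.6% of all genes that passed the filter. Only 1 of the 13, Lyz2, passed the filter, so this share does not describe genes at such low levels. Both S100a8 and S100a9, defining genes of neutrophils, were listed at 0 in all 3 Zfp90ΔIEC samples. In Zfp90fl/fl S100a8 was at 0.236, 0.466 and 0.451 FPKM and S100a9 at 0.8805, 0.4765 and 1.625 FPKM. These control values rest on an estimated 3 to 7 and 7 to 24 fragments per library. Itgam, an integrin of myeloid cells, was at 0.943, 1.007 and 0.928 FPKM in Zfp90fl/fl and at 0.150, 0.132 and 0.180 FPKM in Zfp90ΔIEC (limma without the filter, Benjamini-Hochberg adjusted p = 0.0199). This call was lost when any 1 of the 6 samples was left out, with an adjusted p between 0.0648 and 0.146. The part of this leukocyte difference in the keratin values was not tested.

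The type II keratin Krt8 was the most abundant member. It was listed at 2703, 3071 and 2916 FPKM in Zfp90fl/fl and at 2635, 2912 and 2922 FPKM in Zfp90ΔIEC. The 2 ranges overlapped, and replicate 1 was the lowest sample within each genotype. By its mean over the 6 samples Krt8 was 19th among all genes listed, and it took between 54.5% and 55.2% of the summed FPKM of the 8 keratins in every sample. The mean of 2823 ± 163 FPKM in Zfp90ΔIEC (SD, n = 3) stood beside 2897 ± 185 FPKM in Zfp90fl/fl (SD, n = 3). The log2 fold change on the log2(FPKM + 1) scale was -0.04 (SE 0.074, limma with Benjamini-Hochberg adjustment over all 11564 genes tested, adjusted p = 0.854). The 95% interval of the difference ran from 0.863-fold to 1.10-fold. In bulk samples such as these, fewer cells of a type and less RNA per cell cannot be told apart.

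The FPKM of Krt8 carries a limit of its own, because a processed pseudogene holds a near copy of it. Krt8 lies on chromosome 15 (chr15:101996698-102004482, minus strand, GRCm38) and its transcript of 1958 bases has 9 exons. Krt8-ps lies on chromosome 7 (chr7:23357125-23358069, plus strand, GRCm38), in a single exon of 945 bases. From base 244 of the Krt8 transcript, where its coding sequence begins, to base 1184, the 2 sequences shared 98.6% of 941 aligned bases, with 13 substitutions. The aligned part is 48.1% of the Krt8 transcript. For a read pair that lies wholly within it, only the substituted bases can tell the 2 genes apart. The stretch with 4 of these substitutions is therefore shown. Positions are counted from 1 at the 5′ end of the Krt8 transcript, the window covers bases 1109 to 1168, and capitals mark the bases that differ, A1118T, T1119C, T1158A and G1163A.
Krt8: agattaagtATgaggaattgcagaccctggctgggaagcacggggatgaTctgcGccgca
Krt8-ps: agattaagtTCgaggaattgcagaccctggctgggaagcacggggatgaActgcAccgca
Elsewhere in the alignment the longest run without a difference was 299 bases, and 154 of the 792 windows of 150 bases, the length of a read, were identical (19.4%). This count is for single reads and leaves out the mate of each read. Krt8-ps was listed at 126, 147 and 137 FPKM in Zfp90fl/fl and at 131, 137 and 143 FPKM in Zfp90ΔIEC. This was between 4.68% and 4.99% of the Krt8 value in the same sample, with overlap between the genotypes. How many of the fragments listed under Krt8-ps came from Krt8 was not tested. Krt18 has a near copy as well, Gm5200, which shares 90.5% of the bases over 88.1% of the transcript and was listed at 0 in every sample.

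The other type II keratins were far less abundant. Krt7 (chr15:101411043-101430313, plus strand) was listed at 15.2, 17.7 and 16.2 FPKM in Zfp90fl/fl and at 19.2, 19.6 and 15.7 FPKM in Zfp90ΔIEC. Replicates 1 and 2 of Zfp90ΔIEC were above every control sample, and replicate 3 lay within the control range. The log2 fold change was 0.14 (SE 0.099, limma with Benjamini-Hochberg adjustment, adjusted p = 0.568), with an interval from 0.936-fold to 1.30-fold. Krt80 (chr15:101347444-101370162, minus strand) was at 0.258, 0.229 and 0.248 FPKM in Zfp90fl/fl and at 0.324, 0.241 and 0.513 FPKM in Zfp90ΔIEC. These values rest on an estimated 25 to 57 fragments per library and overlapped between the genotypes. Krt80 was the only member of the 8 that did not pass the filter. In the same test without the filter its log2 fold change was 0.12 (SE 0.076, limma with Benjamini-Hochberg adjustment, adjusted p = 0.682). With a pseudocount of 0.1 in place of 1 this became 0.37, since the added 1 is larger than the level of the gene. Without replicate 3 of Zfp90ΔIEC it was 0.04.

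**Figure D1:**
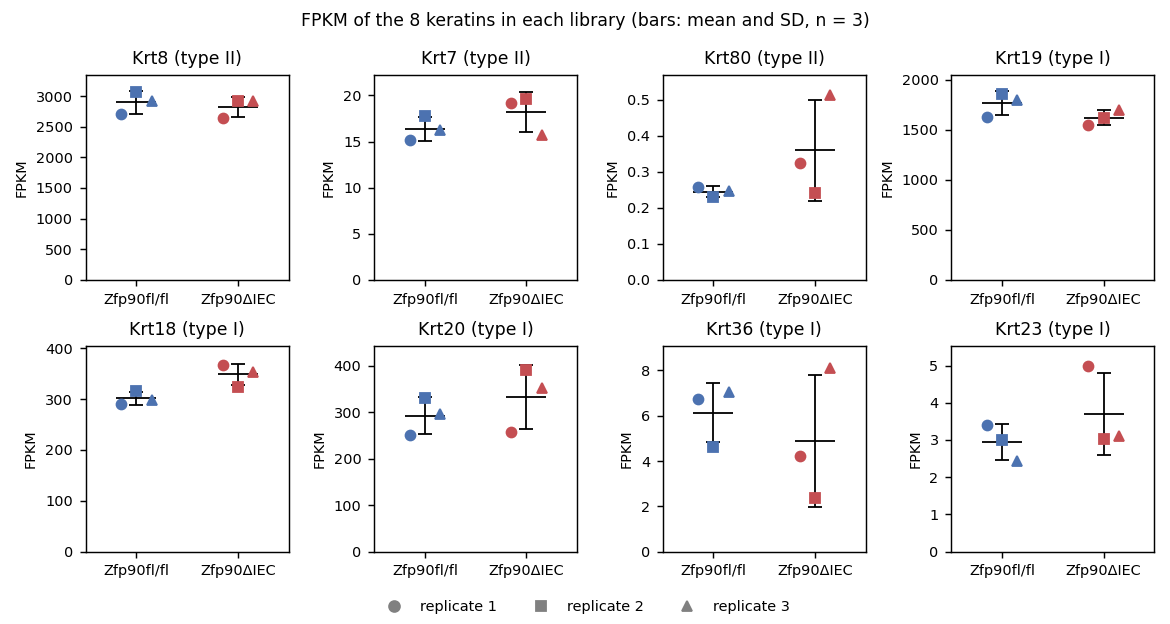
FPKM of each keratin (vertical axes, linear and from 0, a different range in each panel) in the 3 Zfp90fl/fl samples (blue) and the 3 Zfp90ΔIEC samples (red), with the replicate number as the shape of the point and the mean ± SD as bars. Krt18 alone has no overlap between the genotypes, from 290 to 315 FPKM in Zfp90fl/fl and from 324 to 367 FPKM in Zfp90ΔIEC.

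Among the type I keratins, Krt18, the usual partner of Krt8, was the only member of the 8 without overlap between the genotypes. Its FPKM was 290, 315 and 299 in Zfp90fl/fl and 367, 324 and 354 in Zfp90ΔIEC. All 3 Zfp90ΔIEC samples were above all 3 controls, with replicate 2 of each genotype closest to the other group. The mean was 348 ± 21.7 FPKM in Zfp90ΔIEC and 302 ± 12.6 FPKM in Zfp90fl/fl (SD, n = 3 each), a ratio of 1.16. The log2 fold change was 0.21 (SE 0.067), with an interval from 1.03-fold to 1.29-fold and an unadjusted p under 0.05. After adjustment over all genes the difference did not pass the threshold of 0.05 (limma with Benjamini-Hochberg adjustment, adjusted p = 0.240). Of all genes tested, 21.3% had no overlap between the genotypes, 8.73% with higher values in Zfp90ΔIEC, and 14.6% had an unadjusted p under 0.05. By either measure 1 of the 7 keratins tested is near the share among all genes. Krt18 lies on chromosome 15 (chr15:102028180-102032027, plus strand) at 23.7 kb from Krt8, away from the other type I members.

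Krt19, a type I keratin with a very short tail domain, was the second most abundant member. It was at 1632, 1864 and 1799 FPKM in Zfp90fl/fl and at 1545, 1620 and 1695 FPKM in Zfp90ΔIEC. Replicates 1 and 2 of Zfp90ΔIEC were below every control, while replicate 3 was above the lowest control. The log2 fold change was -0.12 (SE 0.072, limma with Benjamini-Hochberg adjustment, adjusted p = 0.484), with an interval from 0.817-fold to 1.03-fold. Under quantile normalization, which sets the highest values of all samples equal by rank, its sign turned to 0.04. Krt19 lies at chr11:100140810-100148665 on the minus strand.

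Krt20, the keratin of differentiated surface cells, was at 252, 331 and 296 FPKM in Zfp90fl/fl and at 257, 391 and 351 FPKM in Zfp90ΔIEC. Replicates 2 and 3 of Zfp90ΔIEC were above every control, and replicate 1 lay within the control range, near its lower end. The mean was 333 ± 68.8 FPKM in Zfp90ΔIEC and 293 ± 39.6 FPKM in Zfp90fl/fl (SD, n = 3 each). Within a genotype Krt20 varied more than the other abundant keratins, with a coefficient of variation of 13.5% in Zfp90fl/fl and 20.6% in Zfp90ΔIEC. For Krt8, Krt18 and Krt19 it was between 4.16% and 6.77%. The log2 fold change of Krt20 was 0.17 (SE 0.169, limma with Benjamini-Hochberg adjustment, adjusted p = 0.684). The interval of the difference ran from 0.855-fold to 1.49-fold, and thus covered both directions. Without replicate 2 of Zfp90ΔIEC the log2 fold change was 0.05, and without replicate 1 it was 0.35. Krt20 lies at chr11:99428403-99438150 on the minus strand.

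The remaining type I keratins were at low levels. Krt36 (chr11:100102007-100105626, minus strand) was at 6.74, 4.64 and 7.05 FPKM in Zfp90fl/fl and at 4.23, 2.38 and 8.09 FPKM in Zfp90ΔIEC. The highest and the 2 lowest of the 6 values were all from Zfp90ΔIEC, so that the groups overlapped over the whole control range. Its log2 fold change was -0.38 (SE 0.341, limma with Benjamini-Hochberg adjustment, adjusted p = 0.662), and the interval was the widest of the 8, from 0.44-fold to 1.35-fold. Without replicate 2 of Zfp90ΔIEC the value was -0.03, and without replicate 3 it was -0.75. Krt23 (chr11:99477974-99493137, minus strand) was at 3.40, 3.005 and 2.44 FPKM in Zfp90fl/fl and at 4.98, 3.02 and 3.10 FPKM in Zfp90ΔIEC. Replicate 1 was the highest sample of each genotype, and replicates 2 and 3 of Zfp90ΔIEC lay within the control range. The log2 fold change was 0.23 (SE 0.172, limma with Benjamini-Hochberg adjustment, adjusted p = 0.581), with an interval from 0.887-fold to 1.56-fold, and it was 0.05 without replicate 1 of Zfp90ΔIEC. These levels rest on an estimated 116 to 380 fragments per library for Krt36 and 109 to 216 for Krt23.

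Of the 8 keratins 7 passed the filter and 0 passed an adjusted p of 0.05 in either direction, where 23 of the 11564 genes tested did (0.199%). At an unadjusted p under 0.05 it was 1 of 7, Krt18. Positive log2 fold changes were seen for 4 of the 7 and negative ones for 3, where 4951 and 6613 of the 11564 genes tested had them. The median was 0.14 beside -0.02 over all genes tested. The 95% intervals of the 7 keratins reached beyond a 2-fold fall for Krt36 only and beyond a 2-fold rise for none. As for each keratin above, these are folds of FPKM + 1, which are smaller than folds of FPKM where levels are low. With a pseudocount of 0.1 the log2 fold change was -0.47 for Krt36 and 0.29 for Krt23. For these 2 genes the intervals therefore set no limit on the fold of FPKM itself.

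**Figure D2:**
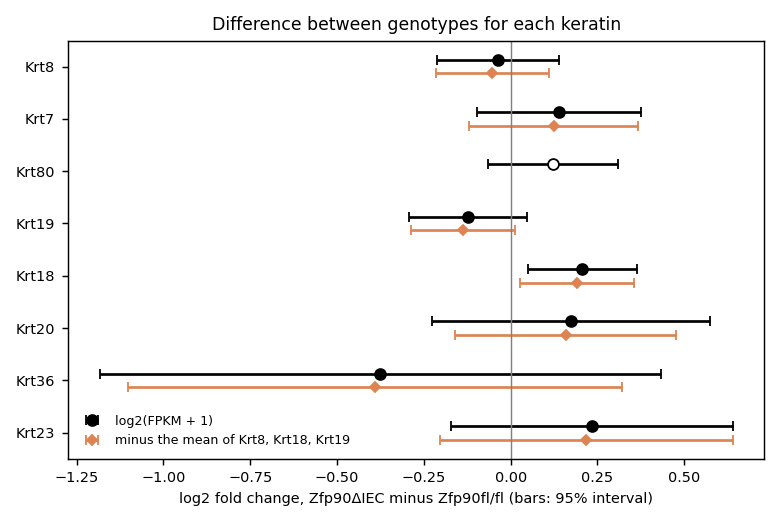
Log2 fold change between Zfp90ΔIEC and Zfp90fl/fl (horizontal axis) with its 95% interval for each keratin, on log2(FPKM + 1) (black circles, open for Krt80 below the filter) and after subtracting the mean of Krt8, Krt18 and Krt19 in each sample (orange diamonds). Krt18 is the only keratin whose intervals lie on one side of 0, and its adjusted p was 0.240 on the first scale and 0.369 on the second.

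The order of the levels was the same in all 6 samples for 4 of the members. Krt8 was always highest, between 1.62 and 1.80 times Krt19, which always came next. Krt7 always followed the 4 abundant keratins, and Krt80 was always lowest. Krt18 and Krt20 were neighbours whose levels did not differ beyond their spread, with means over the 6 samples of 325 and 313 FPKM. Krt20 was above Krt18 in replicate 2 of both genotypes and below it in the other 4 samples. Krt36 and Krt23 also changed places, with Krt23 above Krt36 in replicates 1 and 2 of Zfp90ΔIEC. Krt8, Krt19, Krt18 and Krt20 together made up between 99.4% and 99.5% of the keratin sum in every sample.

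The question of a differentiated against a pan-epithelial keratin was addressed within each sample. Krt20 was 5.44%, 6.30% and 5.89% of the sum of Krt8, Krt18 and Krt19 in Zfp90fl/fl and 5.66%, 8.06% and 7.07% in Zfp90ΔIEC. As for Krt20 alone, replicates 2 and 3 of Zfp90ΔIEC were above every control and replicate 1 was not. In the fit in which every gene was taken relative to the mean of these 3 keratins, the log2 fold change of Krt20 was 0.16 (SE 0.140, limma with Benjamini-Hochberg adjustment, adjusted p = 0.743). This equals 1.12-fold with an interval from 0.895-fold to 1.39-fold. On this relative scale 60 of the 11564 genes passed the threshold (0.519%) and 0 of the 7 keratins did, with Krt18 alone at an unadjusted p under 0.05. Without replicate 2 of Zfp90ΔIEC the relative value was 0.02 and without replicate 1 it was 0.32, so that it depends on single samples. Krt18 and Krt19 are both part of the reference, and relative to it their values were 0.19 and -0.14 (limma with Benjamini-Hochberg adjustment, adjusted p = 0.369 and 0.486). Since the 3 reference keratins are measured against their own mean, values of opposite sign among them are fixed in advance. They do not show whether the reference is uniform. Against Krt8 alone the value for Krt20 was 0.21.

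The makeup of the keratin pool was also compared, as a description with no test. The 8 keratins summed to 4904, 5607 and 5336 FPKM in Zfp90fl/fl and to 4832, 5272 and 5350 FPKM in Zfp90ΔIEC, or between 1.10% and 1.30% of all FPKM. The genotypes overlapped in this sum. Krt18 made up 5.92%, 5.62% and 5.60% of it in Zfp90fl/fl and 7.59%, 6.15% and 6.62% in Zfp90ΔIEC. Krt19 made up 33.3%, 33.2% and 33.7% in Zfp90fl/fl and 32.0%, 30.7% and 31.7% in Zfp90ΔIEC. These were the 2 shares without overlap among the 8, one higher and one lower in Zfp90ΔIEC, where 15.3% of all genes tested had no overlap when divided by the same sum. The ratio of Krt8 to Krt19 was 1.66, 1.65 and 1.62 in Zfp90fl/fl and 1.71, 1.80 and 1.72 in Zfp90ΔIEC. The ratio of Krt8 to Krt18 was 9.31, 9.75 and 9.75 in Zfp90fl/fl and 7.19, 8.98 and 8.25 in Zfp90ΔIEC. Neither ratio overlapped between the genotypes, and both were picked out after their values were seen.

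By contrast, the ratio of type I to type II keratins stayed within a narrow range. It was 0.804, 0.815 and 0.819 in Zfp90fl/fl and 0.820, 0.798 and 0.821 in Zfp90ΔIEC, with overlap and means of 0.813 ± 0.0082 and 0.813 ± 0.0129 (SD, n = 3 each). The sum of type I keratins ran from 2178 to 2518 FPKM and that of type II keratins from 2654 to 3089 FPKM. The ratio is carried almost entirely by Krt19, Krt18 and Krt20 over Krt8, whose copy Krt8-ps is counted apart. By position the members fall into the 2 keratin clusters of the mouse genome. Krt20, Krt23, Krt36 and Krt19 lie within 720 kb of chromosome 11, and Krt80, Krt7, Krt8 and Krt18 within 685 kb of chromosome 15. No member was overlapped by another listed gene other than the microRNA gene Mir1941 within Krt80, which was at 0 in every sample.

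**Figure D3:**
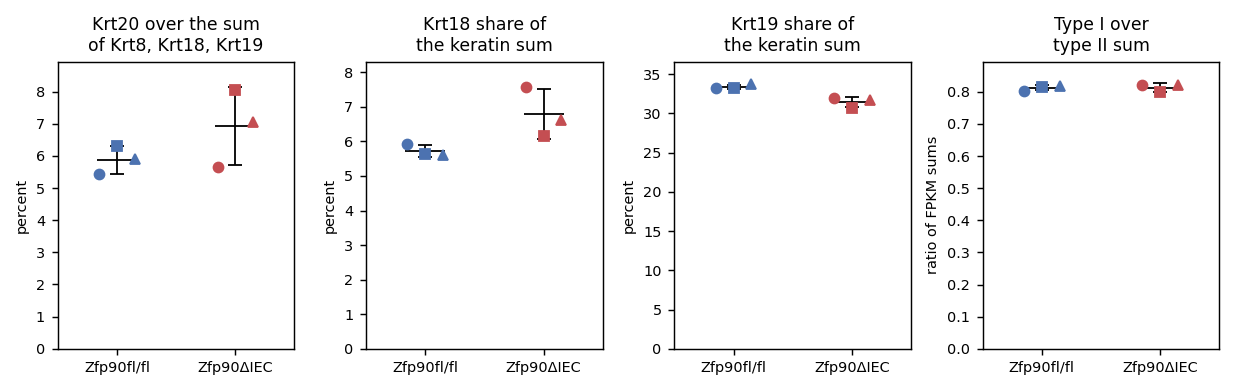
Krt20 as a percentage of the sum of Krt8, Krt18 and Krt19, the shares of Krt18 and Krt19 in the sum of the 8 keratins (percent), and the ratio of type I to type II keratin FPKM, for each Zfp90fl/fl (blue) and Zfp90ΔIEC (red) sample, with the mean ± SD as bars and the replicate number as the shape (circle 1, square 2, triangle 3). The Krt18 and Krt19 shares do not overlap between the genotypes, whereas the ratio of type I to type II lies between 0.798 and 0.821 in all 6 samples.

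The genome annotation lists 46 further keratin genes, and they were nearly silent. Of these, 18 were at 0 in every sample, the highest single value was 1.84 FPKM, and 1 passed the filter. That gene was Krt87, a type II hair keratin, at 1.73, 1.42 and 1.57 FPKM in Zfp90fl/fl and at 1.74, 1.84 and 1.35 FPKM in Zfp90ΔIEC, with overlap. Krt84, another type II hair keratin, averaged 1.00 FPKM in Zfp90fl/fl and 0.738 FPKM in Zfp90ΔIEC without overlap (limma without the filter, Benjamini-Hochberg adjusted p = 0.533).

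Krt20 was next set beside other genes by its values over the 6 samples. The distance was the root mean square difference of log2(FPKM + 1) after centring each gene, over the 6661 other genes that averaged 5 FPKM or more. The closest were Selenoh at 0.021, Abhd17a at 0.051, Mpst at 0.063, Pigyl at 0.069 and Snx7 at 0.074 log2 units, where the spread of Krt20 itself was 0.231. In Selenoh, a selenoprotein gene, the levels were 4.39, 5.95 and 5.21 FPKM in Zfp90fl/fl and 4.25, 7.18 and 6.31 FPKM in Zfp90ΔIEC. The high samples were the same as for Krt20, replicates 2 and 3 of Zfp90ΔIEC, which follows from choosing the gene by its distance to Krt20. Among the keratins with such a mean Krt8 was nearest, at place 778 with 0.181 log2 units, followed by Krt19 at place 2133, Krt7 at place 2381 and Krt18 at place 3048. Krt36 was among the most distant, at place 6574. The values were centred but not scaled, so a gene that did not vary would lie at 0.231 log2 units. Krt19, Krt7 and Krt18 lay near that distance, at 0.222, 0.228 and 0.242 log2 units. Their places therefore do not rank them by likeness of shape.

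Genes that anchor keratin filaments were measured alongside. Of 17 such genes in the list, 16 were found by symbol, 15 were tested and 0 passed the threshold in either direction, with 2 lower at an unadjusted p under 0.05, where 8.09% of all genes were. Their log2 fold changes were negative for 14 of the 15, where those of 6613 of the 11564 genes tested were. The median was -0.12 beside -0.02 over all genes tested. Without overlap 4 of the 15 were lower in Zfp90ΔIEC, where 12.6% of all genes were. The largest differences were those of Dsc2 and Dsp. Dsc2, a desmosomal cadherin, was at 53.4, 61.5 and 53.6 FPKM in Zfp90fl/fl and at 46.5, 48.2 and 41.6 FPKM in Zfp90ΔIEC. Its log2 fold change was -0.30 (SE 0.083, limma with Benjamini-Hochberg adjustment, adjusted p = 0.183). Dsp, the desmoplakin that links keratin filaments to the desmosome, was at 86.9, 91.3 and 79.7 FPKM in Zfp90fl/fl and at 75.5, 77.0 and 77.3 FPKM in Zfp90ΔIEC. For Dsp the log2 fold change was -0.16 (SE 0.064, adjusted p = 0.315 in the same fit).

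Of 16 other intermediate filament genes 5 were tested and 0 passed, with 2 higher at an unadjusted p under 0.05, where 6.56% of all genes were, and a median of 0.08. The nuclear lamins Lmna and Lmnb1 were higher without overlap, as were 8.73% of all genes, at log2 fold changes of 0.17 and 0.22 (limma with Benjamini-Hochberg adjustment, adjusted p = 0.256 and 0.268). Among 5 regulators of the keratin network 0 passed, also at an unadjusted p under 0.05, with a median of -0.003, and among those that averaged 5 FPKM or more the largest differences were -0.16 for Fam83h, which recruits a casein kinase to keratin filaments, and -0.09 for Pnn. Tchp, the trichoplein gene, had a lower level and a value of 0.12. The 4 epithelial genes used as a reference had a median of -0.02, with 0.10 for Vil1, the villin of the brush border, and -0.08 for the claudin Cldn7, and 0 of the 4 passed either threshold.

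Krt20 belongs with the surface colonocytes, and 20 other genes of these cells were tested. None of them passed the threshold in the limma fit with Benjamini-Hochberg adjustment (0 of 20), while at an unadjusted p under 0.05 there were 9 higher and 1 lower, where 6.56% and 8.09% of all genes were, and the median log2 fold change was 0.23. Slc9a3, a sodium and proton exchanger, was at 11.2, 17.6 and 14.9 FPKM in Zfp90fl/fl and at 21.3, 30.2 and 33.3 FPKM in Zfp90ΔIEC (log2 fold change 0.91, SE 0.203, limma with Benjamini-Hochberg adjustment, adjusted p = 0.125). Car1, a carbonic anhydrase, was at 4033, 5628 and 4458 FPKM in Zfp90fl/fl and at 6349, 10060 and 7206 FPKM in Zfp90ΔIEC (log2 fold change 0.73, adjusted p = 0.162). For both genes the 3 Zfp90ΔIEC samples were above all controls, as for 9 of the 20, where 8.73% of all genes were. Another 1 of the 20 was lower without overlap, where 12.6% of all genes were. The rest of the list overlapped between the genotypes, as Krt20 did. The chloride and bicarbonate exchanger Slc26a3 and the guanylin gene Guca2a had log2 fold changes of 0.52 and 0.49. In the other direction Dhrs9, a retinol dehydrogenase, was at 4.53, 6.54 and 7.40 FPKM in Zfp90fl/fl and at 1.66, 2.46 and 2.42 FPKM in Zfp90ΔIEC (log2 fold change -1.16, adjusted p = 0.0664).

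Of 16 genes of the crypt and of proliferation 14 were tested, with a median log2 fold change of 0.22, and 1 passed with a higher value, as 0.0692% of all genes did. At an unadjusted p under 0.05 there were 8 higher and 0 lower, where 6.56% and 8.09% of all genes were, and 8 were higher without overlap, where 8.73% of all genes were. In both cases the 8 were Cd44 and the cell cycle genes Mki67, Top2a, Pcna, Mcm2, Mcm5, Ccnb1 and Cdk1. The remaining genes tested, Axin2, Smoc2, Sox9, Ephb2, Ephb3 and Myc, overlapped between the genotypes. Their log2 fold changes were -0.31, -0.03, 0.12, -0.01, 0.15 and 0.06. Lgr5 and Ascl2 did not pass the filter. The gene that passed was Mki67, a marker of cycling cells, at 22.6, 21.8 and 22.6 FPKM in Zfp90fl/fl and at 29.1, 30.2 and 30.6 FPKM in Zfp90ΔIEC (log2 fold change 0.41, SE 0.051, limma with Benjamini-Hochberg adjustment, adjusted p = 0.0478). Its log2 fold change kept its sign under all 13 alternatives, but the call was lost under 12 of them, leaving out any 1 of the 6 samples included. Over all 13 the adjusted p of the limma fit lay between 0.0409 and 0.163, the lowest being that of median ratio scaling, which kept the call. Cd44 and the mitotic kinase gene Cdk1 had log2 fold changes of 0.52 and 0.42 without passing (adjusted p = 0.134 and 0.130). Among 14 transcription factors of the epithelium 13 were tested and 0 passed, with a median of -0.04. At an unadjusted p under 0.05 there were 1 higher and 2 lower, where 6.56% and 8.09% of all genes were. Grhl2, a grainyhead factor of epithelial junctions, was at 12.9, 11.9 and 11.9 FPKM in Zfp90fl/fl and at 5.40, 10.3 and 4.24 FPKM in Zfp90ΔIEC (log2 fold change -0.87, adjusted p = 0.206).

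**Figure D4:**
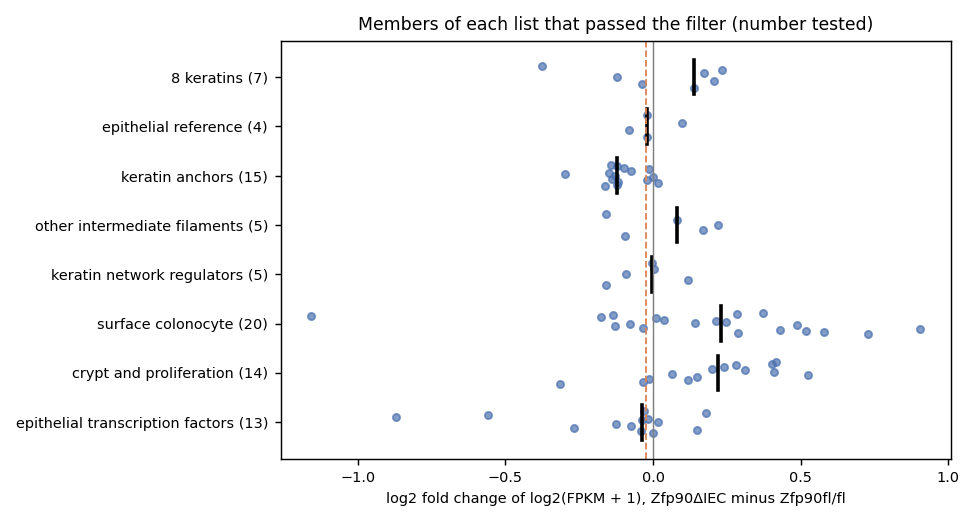
Log2 fold change between Zfp90ΔIEC and Zfp90fl/fl (horizontal axis) of each gene that passed the filter in the 8 keratins and 7 gene lists, with the number tested in brackets, the median of each list as a black bar and the median of all genes tested as a dashed line at -0.02. The keratins lie between -0.38 and 0.23, within the span of the surface colonocyte list from -1.16 to 0.91.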

How the data were processed

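Colon epithelium from 3 Zfp90fl/fl and 3 Zfp90ΔIEC samples had been sequenced as paired-end reads of 150 bp. The authors deposited 1 FPKM value per gene and sample, normalised for transcript length and mapped fragments; the file headers do not name the unit, which follows from the methods and the values. The methods of the study name TopHat, Cuffdiff and a human genome, whereas the submitters' processing notes name STAR 2.5, Cuffnorm, DESeq 1.22.1 and mm9. The gene identifiers are mouse Ensembl identifiers, and 52403 of 52550 were given symbols from GENCODE M21 (GRCm38), which also gave all coordinates.

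FPKM values were transformed to log2(FPKM + 1), and each gene that reached 1 FPKM in 3 or more samples was tested with limma 3.58.1 in R 4.3.3 (intensity trend, Benjamini-Hochberg adjustment, threshold 0.05). In a second fit every gene was taken minus the mean of Krt8, Krt18 and Krt19 of the same sample. Sums, ratios and gene lists were described without a test. The fit was tested on simulated data, with 200 of the 11564 genes changed 2-fold on the log2(FPKM + 1) scale. Of the 200, 89.5% were recovered, with 16 false calls among the other genes, and 0 genes were called when none was changed. Changes below 2-fold were not simulated. Transcripts were compared with blastn 2.17.0, summaries were computed in Python 3.11.15 (numpy 2.4.6, pandas 2.3.3), and plots were drawn with matplotlib 3.10.9. Depth is not given by the files. From the smallest steps between low values the libraries were estimated to hold 26.1 to 29.2 M fragments, and fragment numbers are rough, since only 52.8% to 58.0% of these values were within 10% of a whole step. They used the longest transcript of a gene.

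The keratins and the gene lists were chosen with earlier results of these data known. Besides the keratins the text names Zfp90, further keratin genes with a mean of at least 1 FPKM in a genotype, from each list the members past the threshold without or with the replicate block and the 2 with the largest log2 fold change at a mean of at least 5 FPKM, and the 5 genes closest to Krt20. The values of 1 gene that this rule names are not reported here. Alternatives were a pseudocount of 0.1, no filter, no intensity trend, quantile normalization, median ratio scaling, scaling to 4 epithelial genes, the replicate number as a block, another reference keratin, all keratin genes in the sums, and leaving out each sample. Adding the Krt8-ps reads to Krt8 was chosen after the values were seen.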

Additional observations from a re-analysis of the deposited data

How the results depend on the processing

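Under every alternative tried, 0 of the 8 keratins passed the threshold. Krt7, Krt18, Krt20, Krt23, Krt36 and Krt80 kept their direction throughout. Krt8 lay between -0.086 and 0.012 when each sample was left out, turning positive without replicate 2 of Zfp90fl/fl (0.006) and without replicate 1 of Zfp90ΔIEC (0.012), and Krt19 turned to 0.040 under quantile normalization, values near 0 whose cause was not tested. The value of Krt20 relative to the pan-epithelial keratins lay between 0.02 and 0.32 when each sample was left out. Krt8-ps reads added to Krt8 left its log2 fold change at -0.04. The log2 ratio of the keratin sum was -0.04, and between -0.09 and 0.01 when each sample was left out.

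The number of genes past the threshold over all genes was less stable. From 23 it became 13 with a pseudocount of 0.1, 15 without the filter, and between 10 and 21 when each sample was left out, with 10 without replicate 2 of Zfp90fl/fl.

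The labels number the samples 1, 2 and 3 in both genotypes. Deviations of same-numbered samples correlated at 0.194, 0.110 and 0.078, each sample correlating best with its own number, but not every pair was over 0.1 and no label ties the numbers to a litter or day. When the replicate number entered the fit as a block, 47 of the 11564 genes tested passed, 19 higher and 28 lower. Of the 20 genes tested in the surface colonocyte list, 4 passed as higher and 1 as lower. In the crypt and proliferation list 0 of 14 passed. Krt20 then had an SE of 0.064 (limma with Benjamini-Hochberg adjustment, adjusted p = 0.295, between 0.278 and 0.929 over all alternatives, and 0.510 relative to the pan-epithelial keratins). The calls of Mki67 and Itgam were lost under the block (adjusted p = 0.0833 and 0.291), and no keratin call changed.

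Krt80 rests on few fragments. Fragments of Krt8 and Krt8-ps cannot be fully told apart, and the leukocyte markers and the cage differed with genotype.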
